A study of Homo sapiens with 6 samples.

Results

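The ID and HES transcriptional repressors are described here as 10 genes of the deposited expression table, chosen by symbol. ID1, ID2, ID3, ID4, SMAD6 and SMAD7 stand as readouts of BMP signalling, and HES1, HES4, HEY1 and HEYL as readouts of Notch signalling. All 10 were found among the 16655 genes of the table, and all 10 passed the filter on low counts that left 13002 genes to test. HEK-293T cells, a line of human embryonic kidney origin with the SV40 large T antigen, were profiled by RNA-seq, and the comparison asks what the expression of a squid reflectin does to the transcriptome. Control cells (GFP, n = 3) received the empty pEGFP-C1 plasmid, and RfA1 cells (n = 3) received pEGFP-C1-RfA1, which encodes reflectin A1 of squid fused to GFP. Both groups were lipofected in the same way and share the GFP moiety, and the labels give 24 h after transfection. Expression from both plasmids is transient, so a library can pool cells with and without the construct. Plasmid transcripts were not analysed here, so that the labels have no check from the expressed gene itself.

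ID proteins are helix-loop-helix proteins without a DNA-binding region. They pair with E proteins and keep them and their tissue-specific partners off DNA. BMP ligands activate SMAD1, SMAD5 and SMAD9, which with SMAD4 switch on ID genes and also SMAD6 and SMAD7, the inhibitory SMADs that feed back on the receptors. Notch, cleaved after contact with a ligand on a neighbouring cell, releases an intracellular fragment that binds RBPJ and switches on HES and HEY genes, whose products repress differentiation genes together with Groucho corepressors. These families are known for holding cells in an immature state.

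The windows of 250 bases upstream of the RefSeq start site (GRCh38.p14) were read for 9 of the 10 genes, and those of 4 are shown because they hold the letters of a site of the pathway that the gene reads out. Each is written 5′ to 3′ on the strand of its gene, with the matched letters of the first 3 motifs below in capitals. The motifs searched on both strands were GTGGGAA, a core that RBPJ binds, CACNAG, the N box of HES proteins, GTCTAGAC, a palindrome that SMADs bind, and GGCGCC, a GC-rich palindrome bound by BMP-activated SMADs. No 2 matches overlapped. HES1 lies on the plus strand (window chr3:194135898-194136147), HES4 on the minus strand (chr1:1000098-1000347), HEYL on the minus strand (chr1:39639644-39639893) and SMAD6 on the plus strand (chr15:66701986-66702235).
HES1: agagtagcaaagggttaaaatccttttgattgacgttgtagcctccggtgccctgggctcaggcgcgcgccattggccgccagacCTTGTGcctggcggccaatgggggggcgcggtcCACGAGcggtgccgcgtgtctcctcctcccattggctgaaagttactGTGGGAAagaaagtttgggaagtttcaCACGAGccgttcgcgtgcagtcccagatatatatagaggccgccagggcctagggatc
HES4: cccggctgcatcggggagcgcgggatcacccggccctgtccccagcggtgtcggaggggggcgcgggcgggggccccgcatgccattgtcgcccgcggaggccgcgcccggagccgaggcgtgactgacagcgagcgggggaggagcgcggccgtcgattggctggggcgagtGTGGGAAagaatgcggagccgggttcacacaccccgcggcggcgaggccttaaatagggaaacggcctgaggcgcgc
HEYL: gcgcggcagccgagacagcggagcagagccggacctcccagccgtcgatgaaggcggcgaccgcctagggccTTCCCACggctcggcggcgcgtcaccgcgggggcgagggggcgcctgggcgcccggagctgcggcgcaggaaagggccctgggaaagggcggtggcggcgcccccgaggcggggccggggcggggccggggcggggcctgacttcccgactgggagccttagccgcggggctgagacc
SMAD6: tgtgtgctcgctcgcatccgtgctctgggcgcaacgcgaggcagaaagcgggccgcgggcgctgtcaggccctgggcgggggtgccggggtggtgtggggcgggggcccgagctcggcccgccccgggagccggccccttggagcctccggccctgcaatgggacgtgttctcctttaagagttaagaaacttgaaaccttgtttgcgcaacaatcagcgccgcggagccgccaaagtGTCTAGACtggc
GTGGGAA lay near the start of both HES genes, from position -85 to -79 in HES1 and from -77 to -71 in HES4. In HEYL it lay on the opposite strand from -178 to -172, where the window reads TTCCCAC. HES1 also held 3 N boxes, of which the most distant reads CTTGTG because it lies on the opposite strand. The N box is the site through which HES1 protein represses its own gene. SMAD6 held the SMAD palindrome from -12 to -5. Of the windows of 10633 tested genes, 4.98% held GTGGGAA, 28.9% held CACNAG, 0.132% held GTCTAGAC and 27% held GGCGCC, so that the SMAD palindrome was found in 14 windows in all. GGCGCC was in none of the 6 windows of the BMP readouts and occurred 3 times in that of HEYL, and ID1 held 1 N box. The windows were GC-rich in HES4 (74.8%) and HEYL (79.6%) and less so in HES1 (59.2%), against a median of 65.6% over the tested genes. These matches describe the letters of the windows and not binding in these cells.

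The 10 genes spanned a wide range of levels in these cells. In TPM, which are scaled for transcript length, HES4 was the highest with a mean of 608 over the 6 libraries (445 to 774), above 98.4% of the tested genes. ID3 followed with 298 TPM (255 to 344), HEY1 with 182 TPM (175 to 195) and ID2 with 148 TPM (133 to 170). HES1 stood in the middle at 63.7 TPM (59.2 to 68.9). ID1 (29.8 TPM, 25.3 to 35.5) and ID4 (26.4 TPM, 22.7 to 32.7) were the only neighbours in this order whose ranges overlapped, although ID1 was above ID4 within each of the 6 libraries. SMAD6 (15.9 TPM, 13.8 to 17.9), SMAD7 (8.12 TPM, 6.24 to 10.3) and HEYL (5.60 TPM, 5.30 to 6.11) were the lowest, and HEYL was still above 26.7% of the tested genes. The ID genes and the Notch readouts each had members at high and at low levels, both inhibitory SMADs ranked low among the 10, with SMAD6 still above 51.9% of the tested genes, and the order of the 10 genes did not follow the split into BMP and Notch readouts.

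None of the 10 genes differed between RfA1 and GFP cells at an adjusted p under 0.05 (edgeR's quasi-likelihood test, Benjamini-Hochberg). Of all tested genes, 10 passed (0.0769%). At an unadjusted p under 0.05 there were 2 of the 10 (20%), SMAD7 with higher and HES1 with lower values in RfA1 cells, where 13.9% of all tested genes were under that value, 7.3% with higher and 6.64% with lower values. The same 2 genes were the ones whose groups did not overlap, where 17.9% of all tested genes had groups that did not overlap, 9.86% with RfA1 higher and 8.01% with RfA1 lower. The median log2 fold change of the 10 genes (RfA1 minus GFP) was -0.039, against -0.0024 over all tested genes, with 4 values above 0 and 6 below. The labels do not say whether the libraries came from separate cultures, so these p-values measure the spread between the libraries, which may be technical. In bulk RNA, a smaller number of cells that express a gene and less of its RNA in each cell cannot be told apart.

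**Figure D1:**
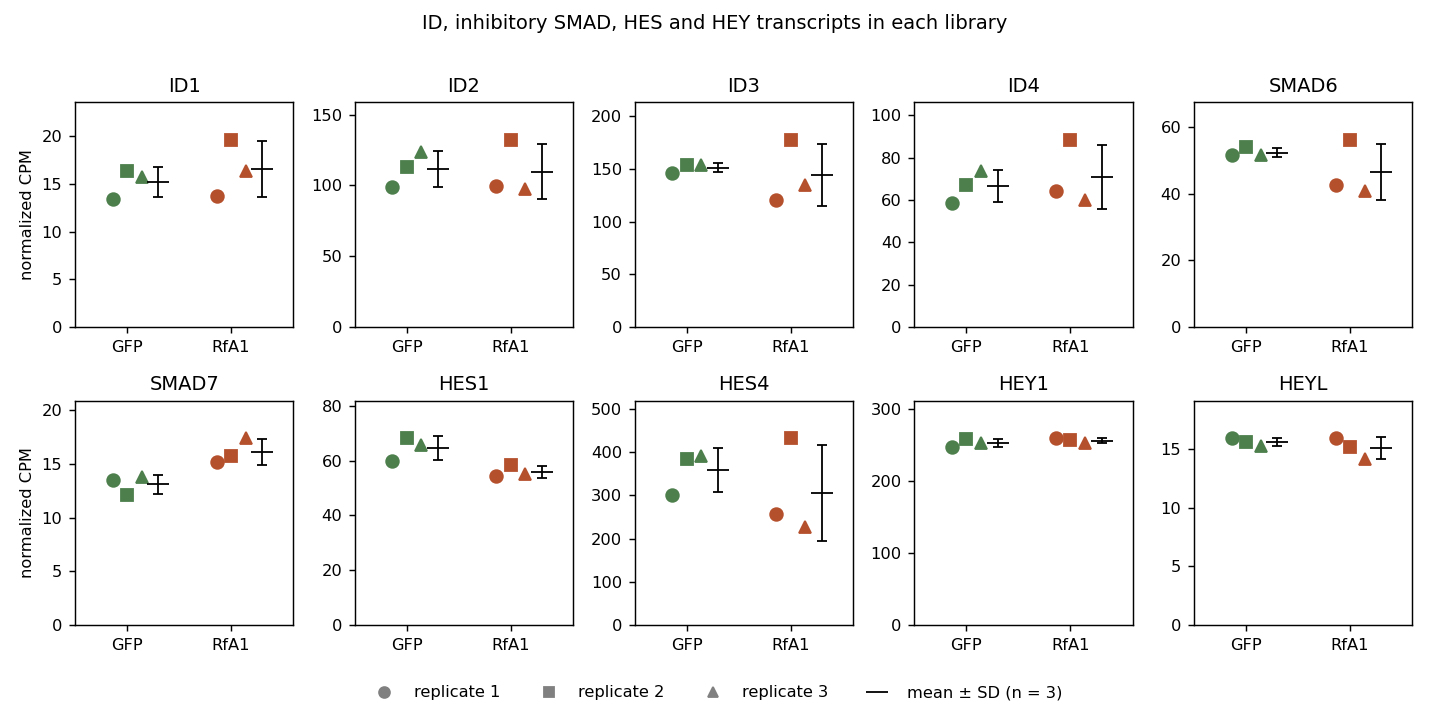
Normalized CPM, counts scaled to a common normalized library size of 1000000 (y axis, from 0), of each of the 10 genes in the 3 GFP and 3 RfA1 libraries (x axis), with a marker for each replicate number and the mean ± SD (n = 3) as a bar. The SMAD7 points of RfA1 cells all lie above and the HES1 points all below those of GFP cells, while RfA1 replicate 2 holds the highest ID1, ID2, ID3, ID4, SMAD6 and HES4 values.

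Before the genes are taken up singly, a property of the libraries has to be given. Total counts were 10272304 to 11566287 per library. The 6 libraries differed in GC content: the mean transcript GC content of their counts was 51.3% to 51.5% in GFP replicates 2 and 3 and RfA1 replicate 2, and 50.3% to 50.8% in GFP replicate 1 and RfA1 replicates 1 and 3. The first principal component, with 44.6% of the variance, separated the libraries in this way (scores 10.1 to 18.2 against -22.0 to -2.18). Its loadings correlated with transcript GC content across genes (Spearman's rho 0.740, described over genes, which are not replicates). RfA1 replicate 2 therefore stood apart from the other RfA1 libraries, and values without it and with a correction of each library for GC content are given beside the genes that they move most. Without it, the remaining RfA1 libraries (50.3% and 50.4%) lay below all 3 GFP libraries (50.8% to 51.5%) in GC content. In every fit without RfA1 replicate 2, the effect of RfA1 and that of GC content therefore cannot be told apart. Among the libraries of low GC content, GFP replicate 1 (50.8%, score -2.18) differed from RfA1 replicates 1 and 3 (50.4% and 50.3%, scores -16.5 and -22.0). Differences given below within the libraries of low GC content are therefore not matched for it. All 8 markers of HEK-293T cells were detected, with summed TPM of 1204 to 1421 in GFP and 1213 to 1511 in RfA1 libraries. Of 14 markers of blood, liver, fibroblast and endothelial cells, only COL1A1 exceeded 1.65 TPM in any library. The summed TPM of the endothelial markers was at most 0.10, that of the blood markers at most 1.19 and that of the hepatocyte markers at most 1.94, while the fibroblast markers summed to 9.39 to 10.9 in GFP and 9.01 to 10.6 in RfA1 libraries.

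SMAD7, which recruits ubiquitin ligases to activated receptors and dampens both BMP and TGF-beta signals, had the largest positive log2 fold change of the 10 genes. Its CPM were 13.5, 12.1 and 13.8 in GFP replicates 1 to 3 and 15.2, 15.7 and 17.4 in RfA1 replicates 1 to 3. All 3 RfA1 libraries were above all 3 GFP libraries. The means were 13.1 ± 0.902 CPM in GFP and 16.1 ± 1.17 CPM in RfA1 cells (SD, n = 3), a log2 fold change of 0.30 (standard error, SE, 0.11) or 1.23-fold, with a 95% interval of 1.03- to 1.46-fold. edgeR's test gave an unadjusted p of 0.0234 and an adjusted p of 0.312. The unadjusted p was 0.0671 in DESeq2 and 0.0211 in limma on log2(TPM + 1). These values rest on 137 to 183 counts per library. In TPM the values were 7.89, 6.24 and 7.01 in GFP and 9.13, 8.15 and 10.3 in RfA1 cells, again without overlap. The difference was positive on either side of the split in GC content, where each side has a single library for 1 of the groups. The part of GC content in it was not tested. On the log2 scale the difference was 0.28 between RfA1 replicate 2 and the 2 GFP libraries of high GC content, and 0.27 between the other 2 RfA1 libraries and GFP replicate 1. After the GC correction it was 0.42 (SE 0.12, adjusted p = 0.0819 in edgeR's test), which stayed short of the threshold.

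SMAD6, the relative of SMAD7 that acts mainly on BMP signalling, had a log2 fold change on the other side of 0. Its CPM were 51.7, 54.0 and 51.6 in GFP and 42.8, 56.2 and 41.0 in RfA1 libraries. The 3 GFP values were close together, whereas the RfA1 values spread to both sides of them, with replicate 2 the highest of all 6. The log2 fold change was -0.17 (SE 0.12, 95% interval -0.42 to 0.09, adjusted p = 0.510 in edgeR's test). Without RfA1 replicate 2 it was -0.32 and passed (adjusted p = 0.0148 in edgeR's test), in a fit where 20.1% of all tested genes passed, 11.5% with lower values in RfA1 cells. With the GC correction of all 6 libraries it was -0.05 (adjusted p = 0.788). Within the libraries of high GC content the difference was 0.09, and within those of low GC content -0.30, each with a single library for 1 of the groups. The difference between SMAD7 and SMAD6 in their response was not tested.

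The 4 ID genes all had overlapping groups. ID1, the member most widely used as a readout of BMP activity, had CPM of 13.4, 16.4 and 15.7 in GFP and 13.7, 19.6 and 16.4 in RfA1 libraries. Its mean was 15.2 ± 1.58 CPM in GFP and 16.6 ± 2.95 CPM in RfA1 cells (SD, n = 3), and the log2 fold change was 0.13 (SE 0.14, 95% interval -0.19 to 0.44, adjusted p = 0.693 in edgeR's test). ID1 after the GC correction was at 0.24 (SE 0.11, unadjusted p = 0.0343, adjusted p = 0.271 in edgeR's test), where 15.9% of all tested genes had an unadjusted p under 0.05. Without RfA1 replicate 2 its value was -0.01. The highest ID1 value of the 6 libraries was that of RfA1 replicate 2.

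ID3, the most abundant ID gene, had CPM of 147, 154 and 154 in GFP and 120, 178 and 135 in RfA1 libraries. The GFP values lay close together and inside the range of the RfA1 values. The log2 fold change was -0.07 (SE 0.12, 95% interval -0.34 to 0.20, adjusted p = 0.812 in edgeR's test). Without RfA1 replicate 2 it was -0.24 (adjusted p = 0.0292 in edgeR's test), in the fit where group and GC content cannot be told apart. In that fit 20.1% of all tested genes passed, 11.5% with lower values in RfA1 cells. With the GC correction of all 6 libraries the log2 fold change of ID3 was 0.02 (adjusted p = 0.930 in edgeR's test).

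ID2, which besides E proteins also binds retinoblastoma family proteins, had CPM of 98.6, 113 and 124 in GFP and 99.3, 132 and 97.8 in RfA1 libraries, and a log2 fold change of -0.03 (SE 0.12, 95% interval -0.30 to 0.24). ID4, the most divergent member of the family, had CPM of 58.7, 67.1 and 73.9 in GFP and 64.1, 88.4 and 60.1 in RfA1 libraries, and a log2 fold change of 0.09 (SE 0.14, 95% interval -0.21 to 0.39). The adjusted p-values from edgeR's test were 0.930 for ID2 and 0.780 for ID4. In both genes the highest value was that of RfA1 replicate 2, and the other 2 RfA1 libraries lay within or just below the GFP range.

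HES1, a direct target of Notch in many tissues and a repressor of neurogenic and other bHLH genes, was lower in the RfA1 libraries than in any GFP library. Its CPM were 59.9, 68.3 and 65.8 in GFP and 54.2, 58.2 and 55.0 in RfA1 libraries. The gap between the groups, from 58.2 to 59.9 CPM, was small beside the spread within GFP cells. The means were 64.7 ± 4.31 CPM in GFP and 55.8 ± 2.13 CPM in RfA1 cells (SD, n = 3), a log2 fold change of -0.21 (SE 0.09) or 0.863-fold, with a 95% interval of 0.758- to 0.983-fold. edgeR's test gave an unadjusted p of 0.0300 and an adjusted p of 0.321. The unadjusted p was 0.0477 in DESeq2 and 0.0879 in limma on log2(TPM + 1). In TPM the groups were also apart, with 63.7, 68.9 and 68.5 in GFP and 60.4, 59.2 and 61.6 in RfA1 libraries. The difference was -0.20 within the libraries of high GC content and -0.13 within those of low GC content, each with a single library for 1 of the groups. With the GC correction it was -0.22 (SE 0.07, adjusted p = 0.129 in edgeR's test), short of the threshold.

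HES4, a HES family member that is present in humans and absent from mice, was the most abundant of the 10 genes and varied most. Its CPM were 300.4, 384 and 392 in GFP and 257, 433 and 227 in RfA1 libraries, which rest on 2379 to 4545 counts. RfA1 cells gave both the highest and the 2 lowest values, with a fold of 1.91 between the highest and the lowest library. The means were 359 ± 50.9 CPM and 306 ± 111 CPM (SD, n = 3), and the log2 fold change was -0.23 (SE 0.20, 95% interval -0.66 to 0.20, adjusted p = 0.591 in edgeR's test). HES4 also had the highest transcript GC content of the 10 genes, 73.9%, where the median of the tested genes was 48.7%. After the GC correction its log2 fold change was -0.03, and the standard error went from 0.20 to 0.06 (95% interval -0.16 to 0.10, adjusted p = 0.862 in edgeR's test). Without RfA1 replicate 2 it was -0.57 (adjusted p = 0.00138 in edgeR's test), in the fit where group and GC content cannot be told apart. The call for HES4 thus differed between the fits, and the part of the GC content of the libraries in it was not tested beyond this correction.

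HEY1 and HEYL, which act downstream of Notch in blood vessels, heart and other tissues, were the steadiest of the 10 genes. HEY1 CPM were 247, 259 and 253 in GFP and 260, 257 and 252 in RfA1 libraries, a fold of 1.05 between the highest and the lowest. The log2 fold change of HEY1 was 0.02 (SE 0.07, 95% interval -0.14 to 0.18, adjusted p = 0.914 in edgeR's test), the narrowest interval of the 10 genes. HEYL CPM were 15.9, 15.6 and 15.3 in GFP and 15.9, 15.2 and 14.1 in RfA1 libraries, and its log2 fold change was -0.05 (SE 0.11, 95% interval -0.28 to 0.18, adjusted p = 0.841 in edgeR's test). Among the Notch readouts, HES1 had groups apart, HES4 was higher in the libraries of high GC content in both groups, and HEY1 varied little across all 6. The 3 genes with an RBPJ core in the windows printed above, HES1, HES4 and HEYL, had log2 fold changes of -0.21, -0.23 and -0.05. With the GC correction these values were -0.22, -0.03 and 0.08. No Notch readout without that core was among the windows read, and a link between the core and these values was not tested.

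**Figure D2:**
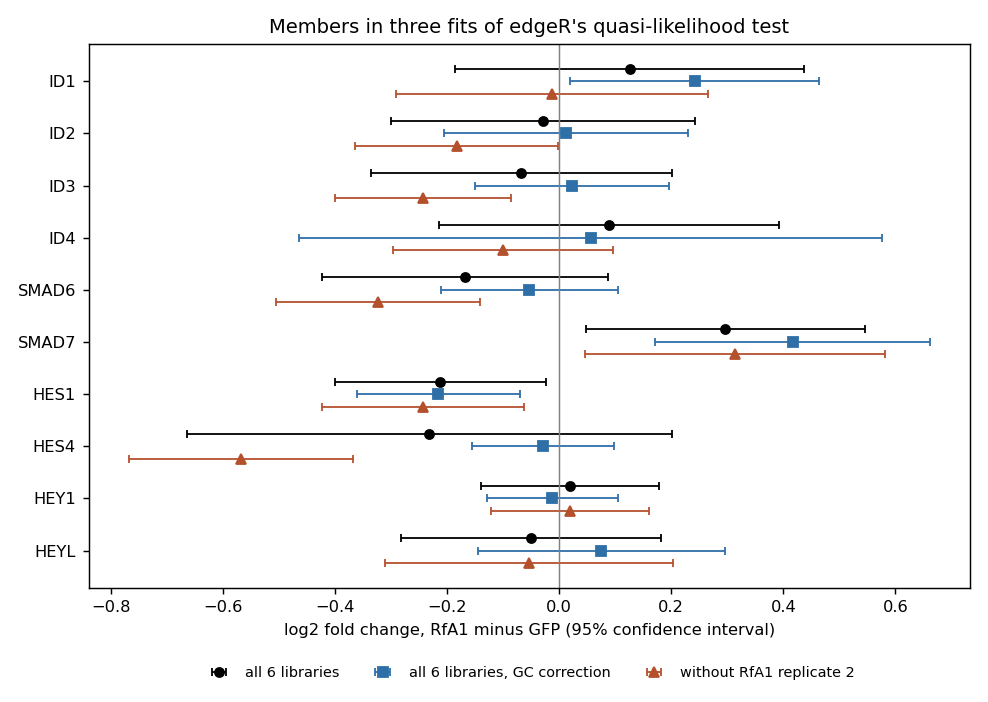
Log2 fold change (x axis, RfA1 minus GFP) with its 95% confidence interval for each of the 10 genes (y axis) in edgeR's quasi-likelihood test with all 6 libraries, with all 6 libraries and a GC correction, and without RfA1 replicate 2. The intervals of SMAD7 lie above 0 and those of HES1 below 0 in all 3 fits, while HES4 moves from -0.23 to -0.03 with the correction and to -0.57 without RfA1 replicate 2.

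Most of the 10 genes spread more widely among the RfA1 libraries than among the GFP libraries. The SD of the CPM was larger in RfA1 than in GFP libraries for 8 of the 10, against 61.5% of all tested genes, and the highest of the 6 libraries was RfA1 replicate 2 for 6 of them, against 16.5% of all tested genes. RfA1 replicate 2 also stood apart from the other RfA1 libraries over all genes, as given above. The range over the 6 libraries, on the log2 scale, had a median of 0.488 over the 10 genes and 0.398 over all tested genes. It was widest for HES4 (0.93), then ID4 (0.59) and ID3 (0.56), and narrowest for HEY1 (0.073). In 4 genes, ID2, ID3, ID4 and HES4, the 3 libraries of high GC content were all above the other 3, a pattern that 20.2% of all tested genes had. The median log2 fold change of the 10 was 0.017 with the GC correction. By transcript GC content, HES4, at 73.9%, and ID4, at 47.0%, followed the split of the libraries, and SMAD7, at 58.7%, did not. The part of transcript GC content in these patterns was not tested.

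**Figure D3:**
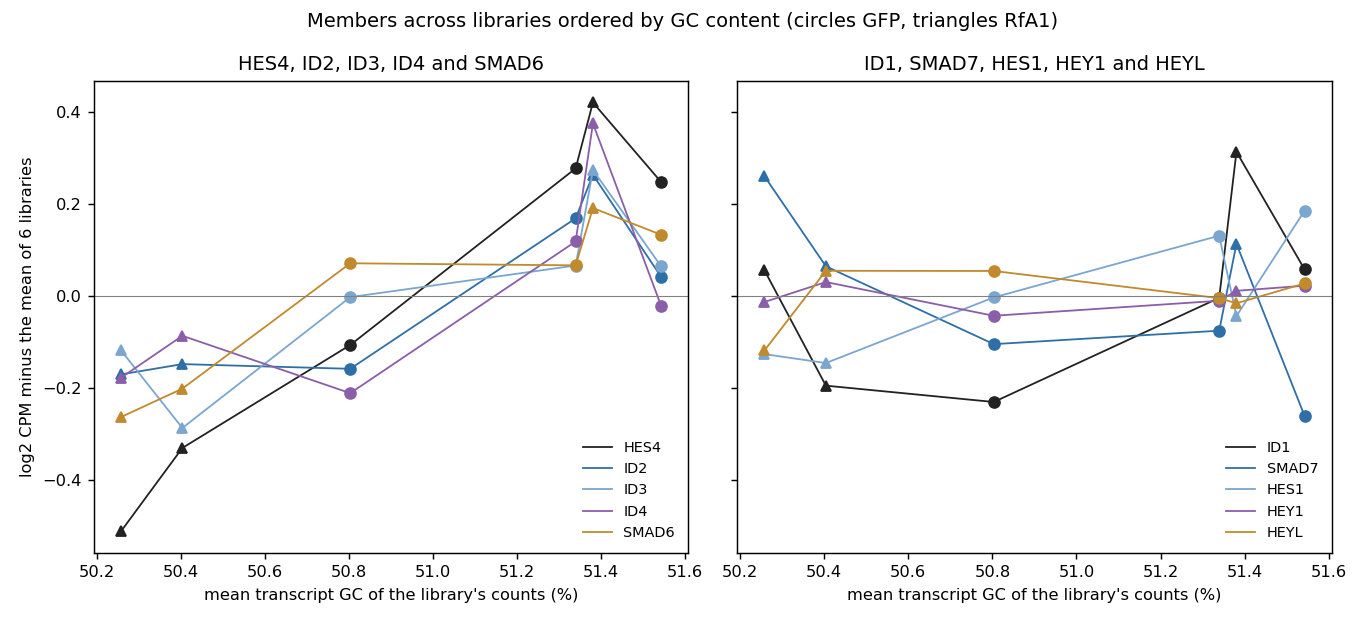
Log2 CPM minus the mean of the 6 libraries (y axis) against the mean transcript GC content of the counts of each library in percent (x axis), with a line for each gene, circles for GFP and triangles for RfA1 libraries. In the left panel HES4, ID2, ID3 and ID4 are higher in all 3 libraries on the right than in the 3 on the left, and in the right panel HEY1 spans 0.073 on the log2 scale.

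The genes whose pattern over the 6 libraries was most like that of SMAD7 and of HES1 were sought among 10510 expressed genes, by the root mean square difference of centred log2 CPM. For SMAD7 they were TBL1XR1 (0.035), GGH (0.040), STAM (0.040), PTPN12 (0.042) and HSF2 (0.044), where SMAD7 itself varied by 0.168 about its mean. For HES1 they were NPIPB11 (0.024), TSKU (0.025), SIRT2 (0.027), MVK (0.028) and HECTD3 (0.030), where HES1 itself varied by 0.123. The adjusted p-values of these 10 genes were 0.247 to 0.402 in edgeR's test. They are no separate result, because genes chosen for a like pattern have like p-values. NPIPB11 belongs to a family of near-identical copies and its counts are uncertain.

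The other genes of the pathways were described from lists written by role from general knowledge. Of 177 genes listed, 166 were in the table and 131 were tested. In edgeR's test 0 of the 131 passed the adjusted threshold. At an unadjusted p under 0.05 there were 14 with higher and 5 with lower values in RfA1 cells, 14.5% of the 131, close to the 13.9% of all tested genes. The groups did not overlap for 28 of them, 21 with higher and 7 with lower values in RfA1 cells, which is 21.4% of the 131 against 17.9% of all tested genes (9.86% higher, 8.01% lower). The median log2 fold change of the 131 genes was 0.034.

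In the BMP list (41 of 56 genes tested, median log2 fold change 0.072), 6 genes (14.6%) had an unadjusted p under 0.05, near the 13.9% of all tested genes, and all 6 had higher values in RfA1 cells, as did 7.3% of all tested genes. They were the ligand BMP2, the receptors ACVR1, BMPR1A and ACVR2A, the signalling protein SMAD1 and the ubiquitin ligase SMURF2, which marks SMADs and receptors for degradation. BMP2 had CPM of 9.98, 10.9 and 10.4 in GFP and 13.4, 14.0 and 13.1 in RfA1 libraries. The RfA1 values all lay above the GFP values, with a log2 fold change of 0.37 (SE 0.11, adjusted p = 0.253 in edgeR's test). ACVR1, a type I receptor for BMPs, had 9.63, 10.4 and 9.27 in GFP and 13.01, 11.7 and 13.6 CPM in RfA1 libraries, also without overlap, with a log2 fold change of 0.39 (SE 0.12, adjusted p = 0.254). The groups of BMPR1A (0.34) and SMAD1 (0.32) overlapped. The adjusted p-values of these 6 genes were 0.253 to 0.357. The other 35 tested genes had log2 fold changes from -0.65 (the coreceptor ENG) to 0.25 (the antagonist TWSG1). With the GC correction BMP2 went from 0.37 to 0.40, ACVR1 from 0.39 to 0.33, ACVR2A from 0.33 to 0.22 and SMURF2 from 0.22 to 0.11. BMPR1A was at 0.24 and SMAD1 at 0.22, and 0 of the 41 genes passed. When RfA1 replicate 2 was left out, 5 of the 41 passed in edgeR's test, all higher in RfA1 cells. In that fit 20.1% of all 13129 tested genes passed, 1124 with higher and 1512 with lower values in RfA1 cells. Among the 5 were ACVR1 (0.45, adjusted p = 0.0267), BMPR1A (0.44, adjusted p = 0.0104), SMAD1 (0.39, adjusted p = 0.0307) and SMURF2 (0.29, adjusted p = 0.0455).

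In the TGF-beta list (17 of 22 genes tested, median 0.040), TGFBR2, PMEPA1 and INHBB had an unadjusted p under 0.05 with higher values and LTBP3 with lower values in RfA1 cells, 4 of 17 or 23.5% against 13.9% of all tested genes. TGFBR2, the type II receptor of TGF-beta, had CPM of 6.93, 7.06 and 7.15 in GFP and 9.56, 8.48 and 9.15 in RfA1 libraries, a log2 fold change of 0.36 (adjusted p = 0.287 in edgeR's test). PMEPA1, a target that restrains SMAD2 and SMAD3, had a value of 0.32 on the log2 scale (adjusted p = 0.331), INHBB, which encodes a subunit of activin B, of 0.35 (adjusted p = 0.339), and LTBP3, which tethers latent TGF-beta, of -0.35 (adjusted p = 0.278). With the GC correction TGFBR2 was at 0.33, PMEPA1 at 0.36 and INHBB at 0.44, and 0 of the 17 genes passed. LTBP3 has a transcript GC content of 67.8%, and with the GC correction its log2 fold change was -0.15. Without RfA1 replicate 2 it was -0.48 (adjusted p = 0.00343 in edgeR's test), the only call of that list in that fit, where 20.1% of all tested genes passed.

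In the Notch list (48 of 52 genes tested, median 0.040), 3 genes had an unadjusted p under 0.05 with higher values in RfA1 cells and 4 with lower values, together 14.6% against 13.9% of all tested genes (7.3% higher, 6.64% lower). FBXW7, the ubiquitin ligase subunit that directs the Notch fragment to degradation, had CPM of 24.8, 25.9 and 21.8 in GFP and 33.6, 30.8 and 36.8 in RfA1 libraries. These groups did not overlap, and the log2 fold change was 0.48 (SE 0.11, adjusted p = 0.175 in edgeR's test). DLL1, a Notch ligand, had 26.4, 32.2 and 32.9 CPM in GFP and 36.9, 40.4 and 37.1 CPM in RfA1 libraries, also apart, with a log2 fold change of 0.32 (SE 0.11, adjusted p = 0.266). L3MBTL3, a corepressor of RBPJ, was at 0.26 on the log2 scale (adjusted p = 0.313). The 4 with lower values were DTX2 (-0.28) and MIB2 (-0.42), both ubiquitin ligases of the pathway, DLK2 (-0.52), an atypical ligand, and RFNG (-0.23), a glycosyltransferase that modifies the receptor, with adjusted p-values of 0.293 to 0.357. With the GC correction they were at -0.13 (DTX2), -0.22 (MIB2), -0.38 (DLK2) and -0.04 (RFNG), and 0 of the 4 passed. In the fit without RfA1 replicate 2, DTX2 (-0.37, adjusted p = 0.0142), MIB2 (-0.65, adjusted p = 0.00117) and RFNG (-0.34, adjusted p = 0.0131) passed in edgeR's test, as did FBXW7 (0.54, adjusted p = 0.00284) and L3MBTL3 (0.32, adjusted p = 0.0303). They were among 4 higher and 4 lower genes of the 48, where 20.1% of all tested genes passed, 11.5% with lower values in RfA1 cells. With all 6 libraries and no correction, RBPJ itself was at 0.14, NOTCH2 at 0.08 and NOTCH3 at -0.10. Of further HES and HEY targets, HES5 was at -0.51 (adjusted p = 0.543), and at -1.16 without RfA1 replicate 2 (adjusted p = 0.0325 in edgeR's test), and HEY2 at -0.02 (adjusted p = 0.956).

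Among the partners of ID and HES proteins (25 of 47 genes tested, median -0.083), 2 (8%) had an unadjusted p under 0.05, both with higher values in RfA1 cells, against 13.9% of all tested genes. NHLH1, a neural bHLH factor, had CPM of 2.16, 1.77 and 2.12 in GFP and 4.37, 4.38 and 4.67 in RfA1 libraries, the largest log2 fold change of the lists (1.15, SE 0.19, adjusted p = 0.0887 in edgeR's test). OLIG2, a bHLH factor of oligodendrocyte and motor neuron precursors, was at 0.36 (adjusted p = 0.318). The log2 fold changes of the E proteins that ID proteins bind were -0.15 (TCF3), 0.05 (TCF4) and -0.08 (TCF12), with overlapping groups in all 3. TCF3 without RfA1 replicate 2 was at -0.30 (adjusted p = 0.0236 in edgeR's test). The 6 Groucho corepressors had a median of -0.14, and 0 of the 6 had an unadjusted p under 0.05 with all 6 libraries. With the GC correction the median was -0.059 over these 6 genes and 0.00077 over the 25 partners. Without RfA1 replicate 2, the Groucho genes TLE3 and TLE5 also passed the adjusted threshold, with lower values in RfA1 cells. They were among 1 higher and 3 lower genes of the 25, in the fit where 20.1% of all tested genes passed.

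Once the libraries were corrected for GC content, 6 genes of the lists were called by edgeR's test at an adjusted p under 0.05, all higher in RfA1 cells, in a fit where 1.28% of all tested genes passed. They were, with their log2 fold changes, DLL1 (0.44, adjusted p = 0.00715), FBXW7 (0.43, adjusted p = 0.0178), NHLH1 (1.23, adjusted p = 0.00512), OLIG2 (0.49, adjusted p = 0.0394), the receptor NOTCH1 (0.33, adjusted p = 0.0137) and NRARP (0.38, adjusted p = 0.0137), a direct Notch target that limits Notch signalling. NOTCH1 and NRARP were named after their values were seen. Without the correction their groups overlapped, with log2 fold changes of 0.16 and 0.18 (adjusted p = 0.568 and 0.406). NRARP had CPM of 116, 128 and 119 in GFP and 128, 153 and 129 in RfA1 libraries. Within the same corrected fit, HES1 was at -0.22, HES4 at -0.03, HEY1 at -0.01 and HEYL at 0.08, and 0 of these 4 Notch readouts passed.

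**Figure D4:**
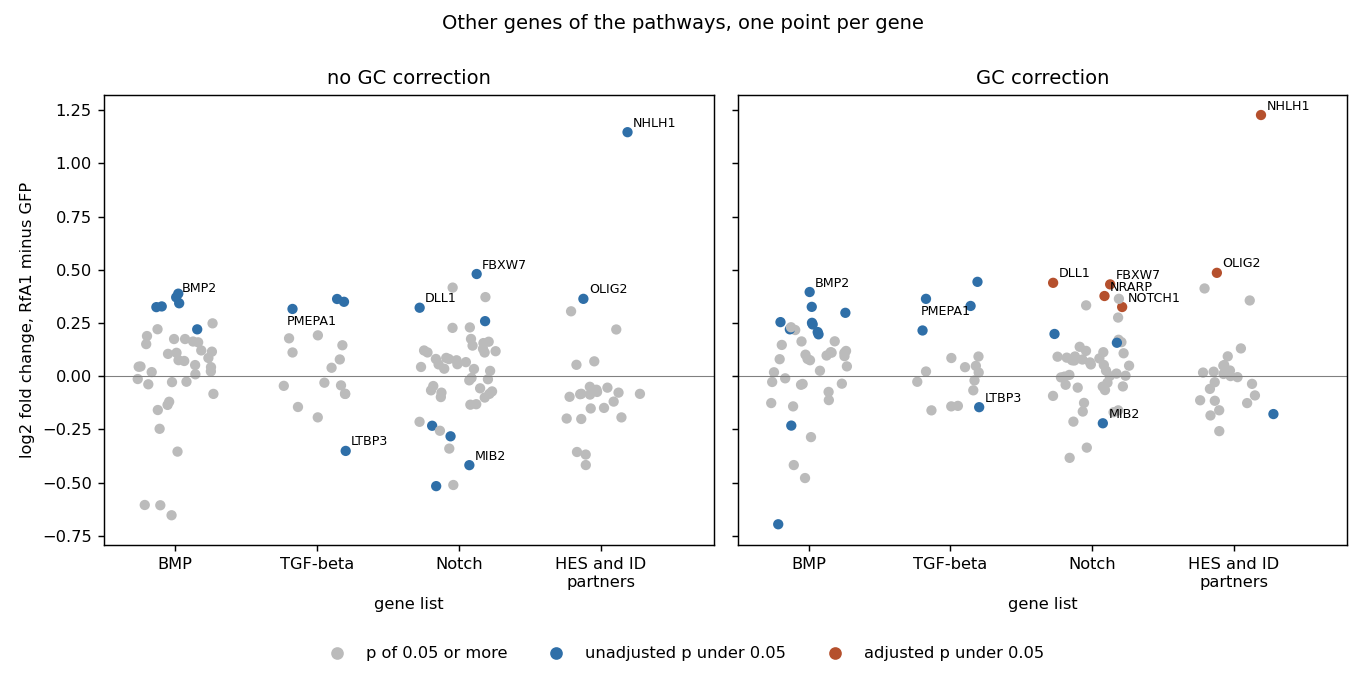
Log2 fold change (y axis, RfA1 minus GFP) of the 131 tested genes of the BMP, TGF-beta and Notch lists and of the HES and ID partners (x axis), without (left) and with (right) the GC correction, coloured by the p-value of edgeR's test. On the left 0 points pass the adjusted threshold of 0.05, and on the right 6 points do, all above 0.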

How the data were processed

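RNA-seq of 3 GFP and 3 RfA1 libraries of HEK-293T cells was analysed, with groups and replicate numbers taken from the labels. The authors deposited one table with estimated counts per gene, not normalized, of which 7.39% to 8.02% per library are not whole, and with TPM, which the authors scaled for transcript length and to a common total. The deposited FPKM and group averages were not used. The submitters' processing notes name HISAT and GRCh38.p13, and the counting tool and annotation are not given in the sources used here. The paper names no test for the RNA-seq. Estimated counts were rounded. Depth was 10272304 to 11566287 counts per library.

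Genes were kept by filterByExpr (minimum count 10, minimum total 15), which left 13002, normalized by TMM and compared with the robust quasi-likelihood test of edgeR 4.0.16 in R 4.3.3, two-sided, with Benjamini-Hochberg adjustment over all tested genes and a threshold of 0.05. The biological coefficient of variation was 8.83%. CPM are counts per 1000000 of the normalized library size. Intervals are 95% intervals of the log2 fold change. The GC correction entered, as an offset for each library, a fitted spline (5 degrees of freedom) of transcript GC content, taken from GENCODE 29 for 98.3% of the genes of the table. Alternatives were DESeq2 1.42.0 (no independent filtering), normalization by upper-quartile factors, total library size, 2 other filters on low counts, the replicate number as a block, the GC correction without and with the block, limma 3.58.1 on log2(TPM + 1) and log2(TPM + 0.1), an unadjusted p, and each library left out in turn. Scripts were tested on simulated data.

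The genes and lists were chosen with earlier results of these data known. Genes were named if they had an unadjusted p under 0.05 in the lists, at most 8 per list by smallest p, and the 5 genes most like SMAD7 and HES1 were sought where the mean log2 CPM was 3 or more. Other genes were named for their role in the pathway. Sequences are from RefSeq. No 2 libraries were alike within sampling noise (chi-square per degree of freedom 1.92 to 17.3). Figures were drawn with matplotlib 3.10.9.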

Additional observations from a re-analysis of the deposited data

How the results depend on the processing

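Over all tested genes, 10 passed an adjusted p of 0.05 (8 higher and 2 lower in RfA1 cells). There were 33 with DESeq2 (17 higher, 16 lower), 6 with upper-quartile factors (4 higher, 2 lower), 20 without a filter on low counts (12 higher, 8 lower), 166 with the GC correction (117 higher, 49 lower), 4 with limma on log2(TPM + 1) and 4 on log2(TPM + 0.1), all higher in both, 442 with the GC correction and the replicate block, and 1812 at an unadjusted p (949 higher, 863 lower). With 1 library left out there were 0 to 2636, the highest without RfA1 replicate 2. Of the 10 repressor genes, 2 passed at an unadjusted p, 1 with the GC correction and the block (SMAD7, adjusted p = 0.0268 in edgeR's test) and 0 to 3 with 1 library left out, the 3 being ID3, SMAD6 and HES4 without RfA1 replicate 2. Of the pathway genes, 19 passed at an unadjusted p, 1 without a filter, 6 with the GC correction, 10 with the correction and the block, and 0 to 18 with 1 library left out. The cause of these differences was not tested.

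Same-numbered libraries did not deviate together (correlations of 0.166, 0.321 and -0.143 for numbers 1 to 3, with the own number as best partner for 1 of 3), so the numbers were not taken as pairs. The replicate block moved the count of all genes from 10 to 625 (309 higher, 316 lower), that of the pathway genes from 0 to 5, and left that of the repressor genes at 0.

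SMAD6, SMAD7 (0.24 to 0.42), HES1 (-0.27 to -0.15) and HES4 (-0.57 to -0.03) kept their direction on the log2 scale under all 16 alternatives. Directions turned for ID2 with the GC correction (0.011), with the correction and the block (0.0083) and on both TPM scales (0.024 and 0.024), for ID3 with the correction (0.022) and with the block added (0.016), for HEY1 likewise (-0.013 and -0.012), and for HEYL with the correction (0.075), with the block added (0.073) and on the TPM scales (0.0065 and 0.0073). The median of all genes lay at 0.045 with log2(TPM + 1) and 0.052 with log2(TPM + 0.1). With 1 library left out the log2 fold change ranged from -0.01 to 0.24 for ID1, -0.18 to 0.051 for ID2, -0.24 to 0.047 for ID3 and -0.10 to 0.19 for ID4. With 3 libraries per group, the 95% intervals of the 10 genes reached from -0.14 to 0.18 in the narrowest (HEY1) and from -0.66 to 0.20 in the widest (HES4).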
